A study of Mus musculus with 19 samples.

Results

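The genes described here are 10 that make up and control the contractile machinery of smooth muscle: Acta2, Actg2, Myh11, Myl9, Mylk, Tagln, Cnn1, Smtn, Lmod1 and Myocd. They were taken by symbol from the 20408 genes of a bulk RNA-Seq table of the mouse suprarenal abdominal aorta (SRA), and all 10 were present once. The table holds 19 male mice on a C57BL6 background, labelled 8 weeks old and fed regular chow. Their SRAs were collected after 24 h of subcutaneous infusion by osmotic pump. In the methods of the study, tamoxifen was injected from 8 weeks of age, and a rest period came before the infusion. Saline was given to 5 IKKβ+/+ and 4 IKKβ-/- mice. Angiotensin II (Ang II), a pressor peptide, was given to 5 IKKβ+/+ and 5 IKKβ-/- mice. Its labelled dose was 500 to 1000 ng/min/kg, and the methods of the study give 1000 ng/min/kg for the mice of this RNA-Seq. IKKβ-/- mice (labelled KO) carried SMA-CreERT2, Ikkβ Flox/Flox and ApoE-/-, and IKKβ+/+ mice (labelled WT) carried SMA-CreERT2 and ApoE-/- with intact Ikkβ. Loss of ApoE, the CreERT2 transgene and tamoxifen were thus common to all groups. CreERT2 is driven by the promoter of smooth muscle actin, Acta2, which is itself 1 of the 10 genes, and it acts only in cells that use this promoter. The study asked whether IKKβ, a kinase of the NF-κB pathway, takes part in the loss of the contractile state of vascular smooth muscle cells under Ang II.

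Smooth muscle contracts when calcium and calmodulin activate myosin light chain kinase (Mylk), which phosphorylates the regulatory light chain of myosin (Myl9) so that the smooth muscle myosin heavy chain (Myh11) can pull on filaments of smooth muscle actin (Acta2 and Actg2). Transgelin (Tagln, also called SM22), calponin (Cnn1), smoothelin (Smtn) and leiomodin (Lmod1) bind or build these actin filaments. Myocardin (Myocd) is the coactivator through which serum response factor (Srf), bound at CArG boxes in promoters, switches on most of these genes, and their fall is commonly used to mark smooth muscle cells that leave the contractile state.

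The reads on genes numbered 11382573 to 19906694 per mouse. Values are DESeq2-normalized counts, that is, reads over the size factor of that library. Differences are on the log2(normalized count + 1) scale, from a limma fit of all 19 mice and 14845 genes, and a call needed a Benjamini-Hochberg adjusted p below 0.1 together with a fold change of more than 1.2. Mouse numbers run in a separate series for each group and the sources name no batch, and batch and group therefore cannot be told apart. Ikbkb, the deleted gene, had 594 to 791 normalized counts in saline-infused IKKβ+/+ mice and 439 to 586 in saline-infused IKKβ-/- mice, with no overlap (log2 difference -0.39 ± 0.12 SE, limma adjusted p = 0.0988). With Ang II it had 685 to 779 in IKKβ+/+ and 430.2 to 672 in IKKβ-/- mice, again with no overlap (-0.42 ± 0.12 SE, limma adjusted p = 0.173). Mice X2385 (Ang II) and X2406 (saline), both IKKβ-/-, had the fewest reads, and results that differ without them are given both ways.

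Positions are in GRCm38, with the strand in parentheses. The actins are Acta2 (ENSMUSG00000035783.9) at chr19:34241090-34255590 (-) and Actg2 (ENSMUSG00000059430.14) at chr6:83512905-83536265 (-). The myosin chains and the kinase are Myh11 (ENSMUSG00000018830.10) at chr16:14194535-14291372 (-), Myl9 (ENSMUSG00000067818.6) at chr2:156775420-156781658 (+) and Mylk (ENSMUSG00000022836.11) at chr16:34745210-35002420 (+). The actin-binding proteins are Tagln (ENSMUSG00000032085.5) at chr9:45929619-45936058 (-) and Cnn1 (ENSMUSG00000001349.5) at chr9:22099216-22109630 (+), with Smtn (ENSMUSG00000020439.17) at chr11:3517523-3540612 (-) and Lmod1 (ENSMUSG00000048096.7) at chr1:135324807-135368065 (+). The regulator is Myocd (ENSMUSG00000020542.18) at chr11:65176561-65269989 (-).

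Actg2 and Acta2 encode near-identical actins. With Ang II in IKKβ+/+ mice Actg2 was called and Acta2 was not, and a difference between them was not tested. Their coding sequences bear on whether reads can be assigned to the right gene. Their coding starts in Gencode M21 (GRCm38) are shown from the start codon, at base 34252553 of chromosome 19 for Acta2 and base 83527441 of chromosome 6 for Actg2, both on the minus strand. Capitals mark the 25 aligned positions of this stretch that differ, the Acta2-only codon included.
Acta2: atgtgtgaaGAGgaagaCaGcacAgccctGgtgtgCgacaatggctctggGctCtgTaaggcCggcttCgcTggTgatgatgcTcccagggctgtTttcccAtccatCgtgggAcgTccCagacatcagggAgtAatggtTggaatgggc
Actg2: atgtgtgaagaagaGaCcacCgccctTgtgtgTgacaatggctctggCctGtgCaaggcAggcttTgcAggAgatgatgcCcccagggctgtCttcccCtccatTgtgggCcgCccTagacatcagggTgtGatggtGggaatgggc
Over the 1128 aligned coding bases, 84.4% were identical, and the longest identical run was 29 bases, shorter than the 84 bases of a read. None of the 84-base windows of the transcripts of the 10 genes (0 of 1607 for Actg2 and 0 of 2112 for Acta2) was found in a transcript of another gene. Among annotated transcripts, a read of 84 bases that matches exactly therefore names 1 of the 10 genes. Reads trimmed to fewer bases and sequence outside annotated transcripts were not searched. Mylk also holds telokin, a short product of the same exons, and gene-level values do not separate the products.

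Promoters of 6 of the 10 genes (Acta2, Myl9, Cnn1, Smtn, Lmod1 and Mylk) were in the RefSeq table (GRCm38.p6). Those of Myh11, Tagln, Myocd and Actg2 were not analysed here. The 250 bases before each start were searched on both strands for the CArG box, and for CArG-like boxes in which 1 letter of the A or T core is G or C. Myl9 held a box of each kind, at -161 and -99 from its start. Acta2 held 2 CArG-like boxes, at -84 and -34, and the windows of the other 4 genes held none. In the same window, 1.47% of the 32851 promoters held a CArG box, 8.59% held a box of either kind and 0.670% held 2 or more. The boxes are shown because they are the letters by which Srf and Myocd are known to act on such genes. The Myl9 stretch lies at chr2:156775214-156775419, on the plus strand before the first exon. The Acta2 stretches lie at chr19:34255438-34255467 and chr19:34255388-34255417 on the minus strand, in the first, untranslated exon of the longer Acta2 transcript of Gencode. Boxes are in capitals.
Myl9: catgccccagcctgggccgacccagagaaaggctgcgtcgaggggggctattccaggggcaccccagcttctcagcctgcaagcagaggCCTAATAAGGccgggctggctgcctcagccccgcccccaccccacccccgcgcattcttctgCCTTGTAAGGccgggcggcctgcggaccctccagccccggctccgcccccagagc
Acta2 at -84: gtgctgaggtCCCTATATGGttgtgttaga
Acta2 at -34: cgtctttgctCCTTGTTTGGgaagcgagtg

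The tissue bore the mark of smooth muscle in every library. Together the 10 genes took 2.31% to 4.76% of all reads on genes. The mean share was 3.42% ± 0.35 (SD, n = 5) in saline-infused and 4.21% ± 0.46 (SD, n = 5) in Ang II-treated IKKβ+/+ mice. In IKKβ-/- mice it was 3.56% ± 0.93 (SD, n = 4) with saline and 3.32% ± 0.99 (SD, n = 5) with Ang II. The groups overlapped, and the spread was wider in IKKβ-/- mice, where mouse X2384 had 2.31%, mouse X2385 had 2.44% and mouse X2406 had 2.54%. Normalized counts ranked 2 of these mice differently. The 10 genes summed to 520609 in X2406 and 462484 in X2385, against 384773 to 512291 in saline-infused IKKβ+/+ mice. In X2406 and X2385, 1 read stood for 1.80 and 1.61 normalized counts, against 0.67 to 1.29 in all other mice. Mouse X2384 was low on both scales (351647). In bulk tissue, fewer smooth muscle cells and less of these RNAs per cell cannot be told apart.

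**Figure D1:**
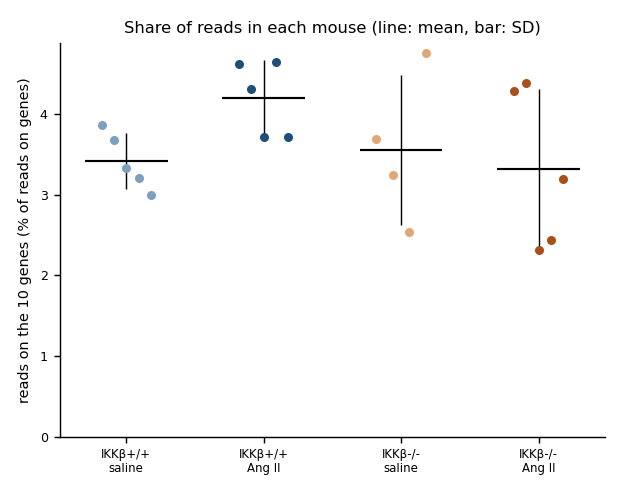
Reads on the 10 contractile genes as a percentage of all reads on genes, in each mouse by group (points), with the group mean (line) and SD (bar). Ang II-treated IKKβ+/+ mice lay between 3.72% and 4.65%, and Ang II-treated IKKβ-/- mice spread from 2.31% to 4.39%.

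Per kilobase of exon, Acta2 had the highest level of the 10 (90376 normalized counts per kb, mean of 19 mice), the eighth highest of all genes tested. Tagln followed with 55929.7 per kb and Myl9 with 36201 per kb. Myh11 (13808 per kb) and Cnn1 (9783 per kb) came next. Smtn (3072 per kb), Lmod1 (2737 per kb), Actg2 (2647 per kb) and Mylk (1872 per kb) were lower. Actg2, the actin of visceral smooth muscle, was thus far below Acta2, the actin of vascular smooth muscle. Myocd, the only transcriptional regulator among them, had 219 per kb.

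In IKKβ+/+ mice, 3 of the 10 genes rose with Ang II within 24 h: Actg2, Cnn1 and Tagln, which encode an actin and 2 proteins that bind actin filaments. Of all genes tested, 4.33% were called higher, and 8.66% were called in either direction. The 7 others were not called, and the median log2 difference of the 10 was 0.23, against 0.01 over all genes tested. In each of the 3 called genes, all Ang II-treated mice lay above all saline-infused mice, which held for 3.95% of all genes tested.

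Actg2 had 1653, 2234, 2574, 3015 and 3286 normalized counts in saline-infused IKKβ+/+ mice and 3667, 4682, 5106, 6164 and 8161 in Ang II-treated ones. The highest saline value lay just under the lowest Ang II value. The difference was 1.11 on the log2 scale (SE 0.23, 95% interval 0.63 to 1.59, limma adjusted p = 0.0119), or 2.16-fold.

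Cnn1, which damps the ATPase activity of actin-bound myosin, had 13655, 17890.2, 20615, 21527 and 21862 normalized counts with saline and 24466, 27979, 32898, 40977 and 44070.2 with Ang II. The groups did not overlap, and the difference was 0.82 (SE 0.20, 95% interval 0.39 to 1.25, limma adjusted p = 0.0303). The Tagln values were 66046, 80160.0, 82027, 87076 and 94417 with saline and 110816, 113415, 124228, 150046 and 152567 with Ang II. Here too every treated mouse was above every control (0.66, SE 0.20, 95% interval 0.24 to 1.09, limma adjusted p = 0.0653).

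Acta2 had 135100.2, 166535, 198332, 198433 and 208437 normalized counts with saline and 185889, 206543, 259464, 278117 and 301107 with Ang II. The 2 lowest Ang II values lay within the saline range, and the difference of 0.44 was not called (SE 0.28, 95% interval -0.14 to 1.01, limma adjusted p = 0.393). Myh11 also overlapped, with 86309 to 107979 (median 92534) with saline and 92938 to 124602 (median 113226) with Ang II (0.21, 95% interval -0.31 to 0.73, limma adjusted p = 0.692). The intervals of Myl9, Mylk, Smtn and Lmod1 held 0 too, with differences of 0.24, 0.16, 0.21 and 0.22. Smtn ran from 9869 to 14037 with saline and from 12913 to 15807 with Ang II, and Lmod1 from 7919 to 10472 and from 9974 to 13725. Myocd had 765 to 3221 with saline and 827 to 1604 with Ang II (-0.19, 95% interval -0.89 to 0.50). Its saline value of 3221, in mouse X2373, decided that sign, and without this mouse the difference was 0.07.

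The Actg2 call held with each of the 10 mice left out, at adjusted p from 0.0045 to 0.0458. Tagln was called in 4 of these 10 fits and Cnn1 in 9, and without mouse X2350 only Actg2 was called, in a fit that called 428 of all genes tested. Ckm, the muscle creatine kinase in the skeletal muscle marker list, moved with the same comparison: it had 15.9 to 57.9 normalized counts with saline and 94.3 to 391 with Ang II (log2 difference 2.93, limma adjusted p = 0.000988). The summed markers of that list were 61.4 to 212 with saline and 167 to 497 with Ang II. Of the 6 tested genes of the list, 3 had a log2 difference above 0, and Ckm alone was called. Mean Acta1, the skeletal muscle actin, was 32.3 with saline and 67.4 with Ang II (1.19, 95% interval -0.09 to 2.47), and mean Tnnt3, a fast troponin, was 12.9 and 22.5. Mean Mylpf was 10.2 and 9.49, mean Actn3 10.3 and 9.67, and mean Tnnc2 10.9 and 5.64, and Myh1, which was not tested, had at most 1.59 in these mice. With the skeletal muscle score as a covariate, none of the 10 genes was called in limma, at differences of 0.82 for Actg2 (adjusted p = 0.124), 0.69 for Cnn1 and 0.59 for Tagln. Calls over all 14845 genes fell from 1286 to 208 in that fit.

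**Figure D2:**
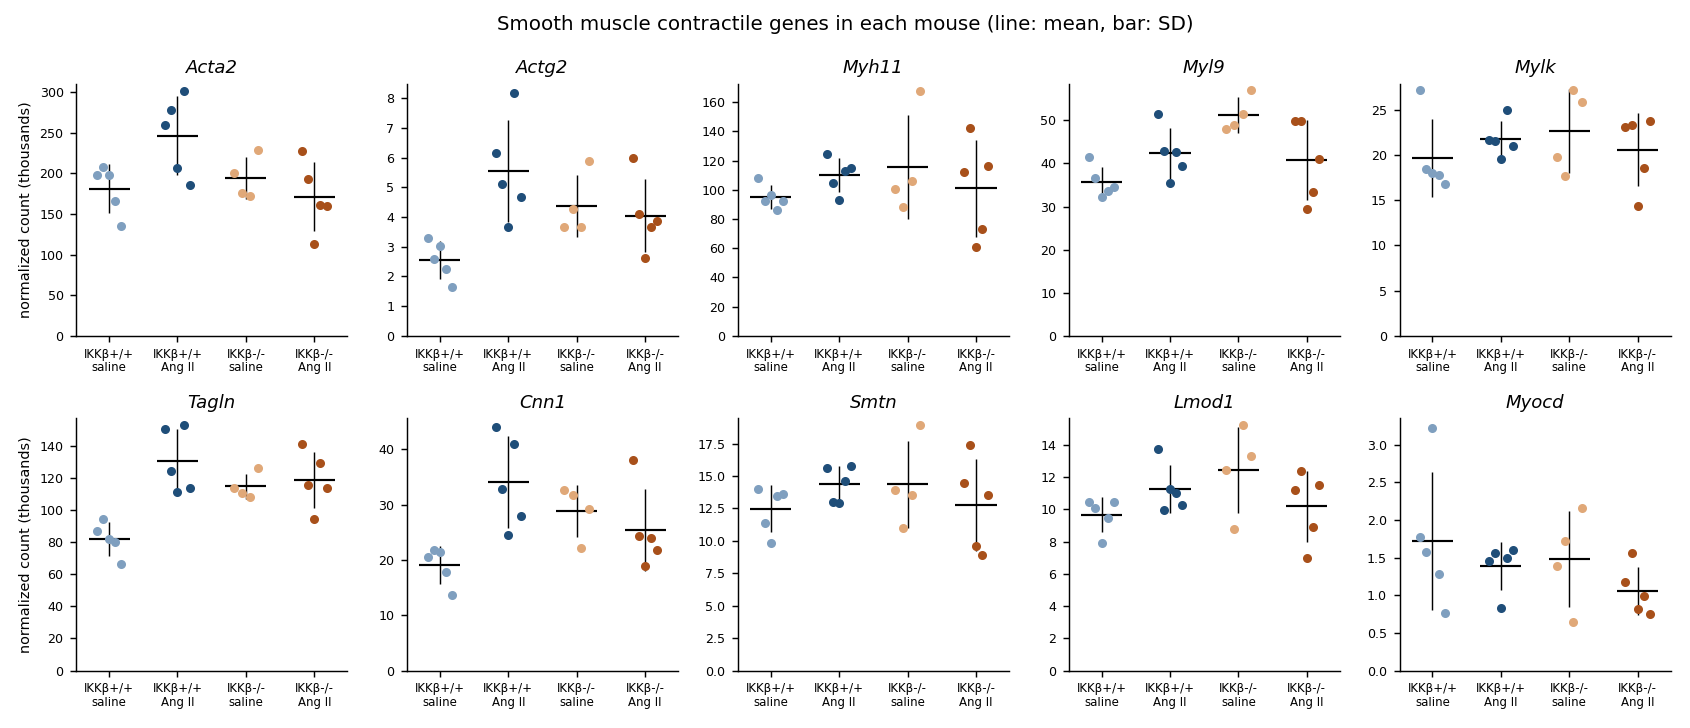
Normalized counts (in units of 1000, axis from 0) of the 10 contractile genes in each mouse by group, with the group mean (line) and SD (bar). For Actg2, Cnn1 and Tagln, the saline-infused IKKβ+/+ mice lie below every Ang II-treated IKKβ+/+ mouse and below every saline-infused IKKβ-/- mouse.

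In IKKβ-/- mice, none of the 10 genes was called with Ang II in limma (5.29% of all genes tested were called, and 2636 had an unadjusted p under 0.05). The edgeR quasi-likelihood test and DESeq2 also called 0 of the 10. The log2 differences ran from -0.41 to 0.04 with a median of -0.21, against 0.00 over all genes tested, and 9 of the 10 were below 0.

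Actg2 had 3675, 3677, 4283 and 5881 normalized counts in saline-infused IKKβ-/- mice and 2617, 3668, 3859, 4115 and 5985 in Ang II-treated ones. The groups overlapped almost entirely (-0.14, SE 0.24, 95% interval -0.64 to 0.37, limma adjusted p = 0.827). Cnn1 had 22145, 29130.2, 31654 and 32584 with saline and 18931, 21731, 23996, 24298 and 38126 with Ang II (-0.21, SE 0.22, 95% interval -0.66 to 0.24). The value of 38126, in mouse X2380, stood well above the other 4. For Tagln the values were 108098, 110711, 113648 and 125831 with saline and 94559, 113666, 115215, 129045 and 141006 with Ang II, and the difference was 0.04 (95% interval -0.41 to 0.49).

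Acta2 had 172443, 175957, 200087 and 228796 with saline and 113336, 160104, 161621, 192847 and 227682 with Ang II (-0.21, 95% interval -0.82 to 0.40). The Myh11 values were 88142, 100701, 106165 and 167445 with saline and 60999.9, 73287, 112179, 116505 and 142235 with Ang II (-0.22, 95% interval -0.77 to 0.33). Both genes were lowest in mouse X2384. Myl9 had the smallest unadjusted p of the 10, with 47901 to 57131 with saline and 29492 to 49905 with Ang II (-0.36, SE 0.18, 95% interval -0.73 to 0.01, limma adjusted p = 0.298).

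Adipocyte markers moved with this comparison. In limma, 5 of the 6 tested (Adipoq, Cfd, Cidec, Pck1 and Plin1) were higher with Ang II in IKKβ-/- mice, and the summed list was 3783 to 5608 with saline and 6517 to 31219 with Ang II. The highest sums were those of mice X2384 and X2385, which also had the lowest shares of reads on the contractile genes. In summed normalized counts of the contractile genes, X2384 was again the lowest of all mice (351647). X2385 was not (462484), and lay above saline-infused IKKβ+/+ mice X2376 (428849) and X2378 (384773). With the adipocyte score as a covariate, 0 of the 10 genes were called, as were only 3 of all 14845 genes (785 without it), and 7 of the differences that had been below 0 were above it (0.29 for Acta2, 0.28 for Myh11 and 0.30 for Actg2).

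With saline, Actg2 was the only one of the 10 genes called between genotypes, higher in IKKβ-/- mice. In this comparison 5.47% of all genes tested were called, and 3.40% were called higher. The median log2 difference of the 10 was 0.29, against -0.02 over all genes tested. Actg2 had 1653 to 3286 normalized counts in IKKβ+/+ and 3675 to 5881 in IKKβ-/- mice (0.79, SE 0.24, 95% interval 0.29 to 1.296, limma adjusted p = 0.0883).

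In 3 other genes, Cnn1, Tagln and Myl9, normalized counts of all saline-infused IKKβ-/- mice also lay above those of all saline-infused IKKβ+/+ mice. This held for 4.68% of all genes tested. Cnn1 had 13655 to 21862 in IKKβ+/+ and 22145 to 32584 in IKKβ-/- mice (0.60, SE 0.22, limma adjusted p = 0.136). Tagln had 66046 to 94417 and 108098 to 125831 (0.49, SE 0.22, limma adjusted p = 0.215). Myl9, the regulatory light chain, had 32333, 33669, 34516, 36538 and 41386 in IKKβ+/+ mice and 47901, 48823, 51462 and 57131 in IKKβ-/- mice (0.53, SE 0.18, 95% interval 0.15 to 0.90, limma adjusted p = 0.115). These 3 did not pass the threshold, although DESeq2 on the recovered reads called all 4 genes, in a fit that called 1437 of the 14845 genes against 812 in limma. Differences of the other 6 ran from -0.19 for Myocd to 0.34 for Lmod1, and for Acta2 the value was 0.11 (95% interval -0.50 to 0.72).

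The Actg2 call rested on every mouse: leaving out any 1 of the 9 mice gave differences of 0.64 to 0.89 and adjusted p from 0.108 to 0.186 in limma. Without mice X2385 and X2406 the difference was 0.87 (limma adjusted p = 0.203), and 19 of all genes tested were called. The summed skeletal muscle markers were 61.4 to 212 in IKKβ+/+ and 143 to 290.1 in IKKβ-/- mice with saline, and the summed adipocyte markers were 3858 to 13261 and 3783 to 5608. Skeletal muscle and adipocyte scores as covariates left 0.42 (adjusted p = 0.513) and 0.55 (adjusted p = 0.309), and over all 14845 genes these fits called 9 and 71.

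With Ang II, none of the 10 genes was called between genotypes in limma, where 0.128% of all genes tested were called and 2118 had an unadjusted p under 0.05. The edgeR test called 0 of the 10, and DESeq2 called Acta2 (-0.53, adjusted p = 0.0912) among 521 of the 14845 genes. In limma all 10 differences were below 0, with a median of -0.20. The lowest were those of Acta2 (-0.54, 95% interval -1.11 to 0.04), Actg2 (-0.45, 95% interval -0.93 to 0.02) and Cnn1 (-0.43, 95% interval -0.86 to -0.00). Myh11 differed by -0.19 (95% interval -0.71 to 0.33) and Tagln by -0.13 (95% interval -0.56 to 0.29). In each of the 10 genes the ranges of the genotypes overlapped. They overlapped in most of the 14845 genes too: all IKKβ-/- mice lay above all IKKβ+/+ mice in 97, and below them in 131. Mylk and Myl9 were above 0 without mouse X2384 (0.03 for both).

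The difference between the Ang II effects of the genotypes tests directly whether the response depended on IKKβ. No gene was called in limma (0% of the 14845, of which 1654 had an unadjusted p under 0.05), while edgeR called 3 and DESeq2 279. All 10 differences were below 0, with a median of -0.56, against -0.00 over all genes tested. They share the saline and Ang II mice of the comparisons above, so that their sign is no separate finding. The largest were those of Actg2 (-1.25, SE 0.33, 95% interval -1.94 to -0.55, unadjusted p = 0.00127, limma adjusted p = 0.242) and Cnn1 (-1.03, SE 0.30, 95% interval -1.65 to -0.41, unadjusted p = 0.00251, limma adjusted p = 0.256). Intervals of Tagln (-1.24 to -0.01), Myl9 (-1.12 to -0.09) and Lmod1 (-1.004 to -0.01) also lay below 0, and those of the other 5 held 0. DESeq2 called Actg2 (adjusted p = 0.0353), Cnn1 (adjusted p = 0.043) and Tagln (adjusted p = 0.0599), and limma without mouse X2356 called Actg2 (adjusted p = 0.0964).

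**Figure D3:**
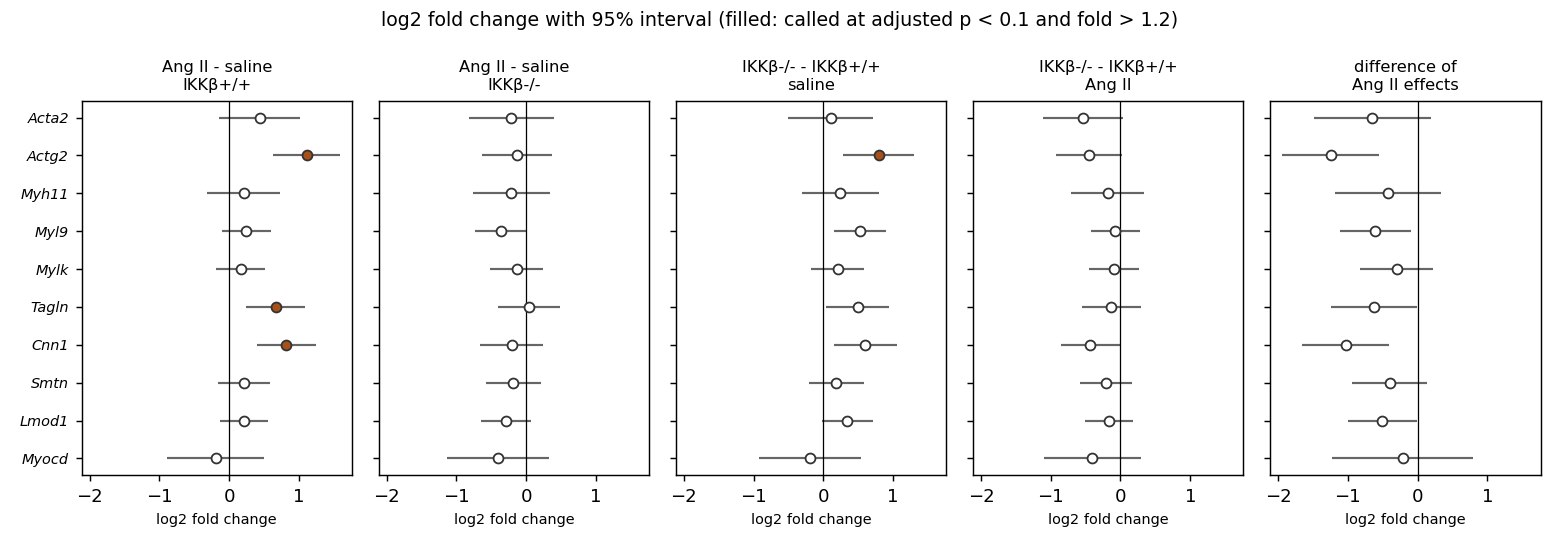
Log2 fold changes of the 10 contractile genes in the 5 comparisons (points) with 95% intervals (lines); filled points were called. Actg2, Tagln and Cnn1 are filled for Ang II in IKKβ+/+ mice, Actg2 is filled between genotypes with saline, and no point is filled in the other 3 panels.

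Order of the group means differed between genes. Actg2 was lowest in saline-infused IKKβ+/+ mice (mean 2552 ± 645, SD, n = 5), followed by Ang II-treated IKKβ-/- (4049 ± 1223, SD, n = 5), saline-infused IKKβ-/- (4379 ± 1041, SD, n = 4) and Ang II-treated IKKβ+/+ mice (5556 ± 1709.7, SD, n = 5). Neighbours in this order overlapped. Tagln and Cnn1 were also lowest in saline-infused and highest in Ang II-treated IKKβ+/+ mice. Myl9 and Lmod1 were highest in saline-infused IKKβ-/- mice instead, as were Myh11 and Mylk. In 7 of the 10 genes (Acta2, Myh11, Myl9, Mylk, Smtn, Lmod1 and Myocd) the lowest value of all 19 mice was in an IKKβ-/- mouse, which was mouse X2384 for 5 of them, mouse X2385 for Smtn (8947) and mouse X2406 for Myocd (647).

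The regulator Myocd varied most between mice of a group, with an SD of 0.60 on the log2 scale, above 78.3% of all genes tested. Tagln varied least of the 10 (0.19). Srf, the factor that Myocd and the myocardin-related factors Mrtfa and Mrtfb bind, had 690 to 1139 normalized counts with saline and 844 to 1514 with Ang II in IKKβ+/+ mice and was not called (0.34, 95% interval -0.06 to 0.74, limma adjusted p = 0.325). Mrtfb was lower with Ang II in IKKβ+/+ mice (-0.47, SE 0.14, limma adjusted p = 0.0574) and lower in saline-infused IKKβ-/- than IKKβ+/+ mice (-0.48, SE 0.15, limma adjusted p = 0.0842). Mrtfa differed by -0.10 with Ang II in IKKβ+/+ mice (95% interval -0.36 to 0.16). Klf4, a repressor of contractile genes, was not called in any of the 5 comparisons. Its largest difference was -0.54 for Ang II in IKKβ-/- mice (95% interval -1.01 to -0.07, limma adjusted p = 0.216).

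Across the 19 mice, after the mean of each group was removed, 44 of the 45 pairs of the 10 genes had a Pearson r above 0, with a median of 0.60. Of these, 29 passed an adjusted p under 0.1 (permutation within groups, 100000 resamples, two-sided, adjusted over the 45 pairs), and 25 did so by Spearman's rho. Pairs of other genes were not tested in this way, so how common such a count is among other genes is not known. The highest r was that of Tagln with Cnn1 (r = 0.87, rho = 0.88, permutation adjusted p = 0.0009 and 0.00045). The lowest was that of Lmod1 with Myocd (r = -0.23, rho = -0.17, permutation adjusted p = 0.427 and 0.565).

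Read off these values after they were seen, the genes lay in 2 blocks. Acta2, Actg2, Tagln and Cnn1, the actins and a pair of actin-binding proteins, correlated at r from 0.82 to 0.87 (rho from 0.80 to 0.88) in their 6 pairs. Without the 2 mice farthest from the median, r was 0.75 to 0.84. Myh11, Myl9, Mylk, Smtn and Lmod1, which hold the myosin chains and their kinase, correlated at r from 0.64 to 0.87 (rho from 0.58 to 0.84) in their 10 pairs, and at 0.52 to 0.83 without 2 mice. In the 20 pairs between the blocks r was 0.12 to 0.71, with a median of 0.40, and 9 of these passed. Myocd passed with all 4 genes of the first block (r from 0.48 to 0.66) and with none of the second (r from -0.23 to 0.40). The 3 genes called with Ang II in IKKβ+/+ mice all lay in the first block. All points share the size factors of the mice. With TMM scaling, which also gives each mouse 1 factor, 29 pairs passed again. The part of shared scaling or of tissue make-up in these correlations was not tested.

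**Figure D4:**
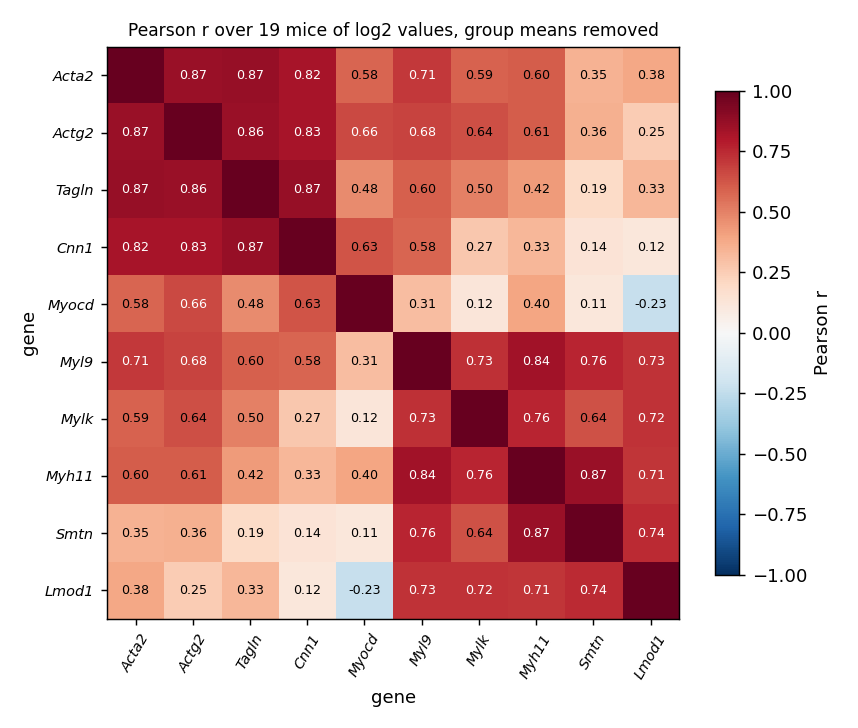
Pearson r between each pair of the 10 contractile genes over 19 mice, computed on log2 values after subtracting the group mean, with colour from blue (-1) to red (1). The first 4 genes and the last 5 form the 2 blocks of high r, with lower values between them.

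The genes whose level followed the 10 most closely were ranked by the Pearson r of the group-centred log2 value with the mean of the 10 standardized genes, over 19 mice and 11411 genes with a mean of at least 50 normalized counts. The first 10 were Itgb3 (r = 0.95), Eif4h (0.93), Col4a2 (0.92), Vcl (0.92), Tpm1 (0.92), Ilk (0.92), Inpp5a (0.92), Xk (0.91), Mfge8 (0.91) and Kcnmb1 (0.91). The median r of all 11411 genes was 0.02. Itgb3 is an integrin chain, Vcl and Ilk encode vinculin and integrin-linked kinase of the adhesion plaques, Tpm1 a tropomyosin, Col4a2 a basement membrane collagen and Kcnmb1 a subunit of the calcium-activated potassium channel of smooth muscle.

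Beyond the 10, 91 tested genes stood in 5 lists of the contractile pathway. In IKKβ+/+ mice, 8 of them rose and 4 fell with Ang II. Of all genes tested, 4.33% were called higher and 8.66% were called in either direction. Of 16 genes of the thin filament and myosin regulation, 2 rose: Tpm2, the β-tropomyosin (0.80, SE 0.18, limma adjusted p = 0.0199), and Ppp1r14a, the inhibitor CPI-17 of myosin phosphatase (0.67, SE 0.16, limma adjusted p = 0.0254). Of 22 genes of dense plaques, adhesion and intermediate filaments, Des, which encodes desmin (0.86), Csrp1 (0.62) and Ldb3 (0.60) rose. None of 15 genes of calcium and cyclic GMP handling was called, and their median was -0.18. Of 17 transcriptional regulators, Mef2c (-0.61), Hey2 (-0.60) and Mrtfb fell. Of 21 genes of the synthetic state and non-muscle myosin, S100a4 (1.65), Lgals3 (1.63) and Tpm4 (0.72) rose and Myh10, a non-muscle myosin heavy chain, fell (-0.70). Contractile and synthetic genes were thus both among the 8 that rose. Without mouse X2358, 5 of the 91 were called instead of 12, and without mouse X2356, 25 were.

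In IKKβ-/- mice none of the 91 rose with Ang II and 3 fell: Nr4a1, an immediate early nuclear receptor (-2.04, SE 0.46, limma adjusted p = 0.0217), Filip1l (-1.07) and Ppp1r12a, the targeting subunit of myosin phosphatase (-0.60). Of all genes tested, 5.29% were called in this comparison. With saline, 5 were higher in IKKβ-/- than in IKKβ+/+ mice, and 4 of these belong to the thin filament and myosin regulation: Nexn (0.83), Ppp1r12a (0.82), Rock1 (0.67) and Ppp1r14a (0.60). S100a4 was also higher (1.23), and Mmp2 (-0.91) and Mrtfb were lower. Between genotypes with saline, 3.40% of all genes tested were called higher and 5.47% were called in either direction. Ppp1r12a ran at 9991 ± 317 normalized counts (SD, n = 5) in saline-infused IKKβ+/+ mice and 18567 ± 7579 (SD, n = 4) in saline-infused IKKβ-/- mice. None of these 7 was called without mice X2385 and X2406. With Ang II, 0 of the 91 differed between genotypes in limma, and 0 did in the difference of the effects. Of all genes tested, limma called 0.128% and 0% there. DESeq2 called 7 and 4 of the 91, and 521 and 279 of all genes tested.

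Of the markers of other cell types, Cldn5 (-1.16) and Tek (-1.08) of 8 endothelial genes and Lum (-1.27) of 7 fibroblast genes fell with Ang II in IKKβ+/+ mice, where the macrophage, adipocyte, brown adipocyte, pericyte, nerve, cardiac muscle, erythroid and lymphocyte lists had no call. In IKKβ-/- mice Kdr of the endothelial (1.79), Dpep1 of the fibroblast (1.25), Sox10 of the nerve (1.74) and Kcnj8 of the pericyte list (0.59) rose with Ang II. Of the genes tested, 2 of 8 endothelial, 4 of 7 fibroblast, 6 of 6 nerve and 1 of 3 pericyte genes had a log2 difference above 0. The medians of these lists were -0.30, 0.18, 1.04 and -0.08, so Kdr and Kcnj8 went against most of their lists. Each lymphocyte marker had a median under 10 normalized counts, and no mesothelial marker could be tested. Between genotypes with saline, Adgre1 (-1.02) and Cd68 (-0.93) of 7 macrophage genes were lower in IKKβ-/- mice, as was Pck1 of 6 adipocyte genes (-3.77, limma adjusted p = 0.0928). The median log2 difference of the adipocyte list was -2.39, with 5 of 6 below 0. The summed macrophage list was 7416 to 9894 in IKKβ+/+ and 4480.3 to 6574 in IKKβ-/- mice. The part of these markers in the values of the contractile genes was not tested.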

How the data were processed

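Bulk RNA-Seq of SRAs from 19 mice was analysed. The authors prepared stranded poly(A) libraries, sequenced single reads and used Trimmomatic 0.35 for trimming and STAR 2.7.1a for alignment to GRCm38 and counting on Gencode genes. The signal deposited by the authors is the count of each gene divided by the size factor of the mouse (DESeq2 1.30.1). RSEM is also named in the processing notes. All values (100%, tolerance 0.02) were whole multiples of 1 read, from which reads were recovered (11382573 to 19906694 per mouse). This depth limits genes with few reads, and intervals across mice do not separate counting error.

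The fit was limma 3.58.1 (R 4.3.3) with a trend on log2(value + 1) and 4 group means. It held the 14845 genes that reached 10 normalized counts in 4 or more mice, and 5563 were left out. Adding 1 pulls the fold changes of low genes toward 0. Tests were two-sided and adjusted over all genes tested. The 10 genes, the gene lists and the comparisons were chosen with earlier results of these data known. Named genes are the 10, up to 4 called genes per list and comparison with the largest change and a mean of at least 50 in a group, the 10 genes most like them, Ikbkb, Srf, Mrtfa, Mrtfb and Klf4. Other genes with values beside a result are the list members that moved with it. Plin1, Acta1, Tnnt3, Mylpf, Actn3, Tnnc2 and Myh1 were named after their values were seen.

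Alternatives were a pseudocount of 4, no filter, only the groups compared, array weights, TMM scaling, edgeR 4.0.16, DESeq2 1.42.0, a threshold of 0.05 for the adjusted p, one of 1.5 for the fold change, an adipocyte or skeletal muscle score added to the model, and each mouse left out. A fit without mice X2385 and X2406 was chosen after the data had been seen. Mice are taken as separate animals from their numbers.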

Additional observations from a re-analysis of the deposited data

Results flagged for a closer look

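The highest or lowest mouse stood apart from the rest of its group in 3 of 40 sets of values (10 genes in 4 groups), by a gap to its nearest neighbour that exceeded Dixon's critical share of the range of the group. Chance gives such a gap in about 1 in 20 groups. Mylk had 27238 normalized counts in mouse X2370 (IKKβ+/+, saline) and 16835 to 18441 in the other 4, a gap of 0.846 of the range against a critical value of 0.71. Myocd had 827 normalized counts in mouse X2356 (IKKβ+/+, Ang II) and 1458 to 1604 in the other 4 (0.811 of the range). Cnn1 had 38126 normalized counts in mouse X2380 (IKKβ-/-, Ang II) and 18931 to 24298 in the other 4 (0.72 of the range).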

How the results depend on the processing

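No paired analysis was possible because each mouse number occurs in 1 group only. Of the 10 genes, Ang II in IKKβ+/+ mice gave 3 calls, and 0 with the skeletal muscle score as a covariate. DESeq2 gave 4, no filter gave 2 and an adjusted p under 0.05 gave 2. Leaving out a mouse gave 1 to 3. Between genotypes with saline 1 gene was called. The count was 0 without the filter, at an adjusted p under 0.05, with either score as a covariate, without mice X2385 and X2406 and without any 1 mouse (0 to 0). It was 3 with only the groups compared, with array weights and with edgeR, and 4 with DESeq2. Between genotypes with Ang II, DESeq2 gave 1. For the difference of the effects, array weights gave 1, DESeq2 gave 3 and leaving out a mouse 0 to 1. A stricter threshold lowers such counts by construction. The cause of the other shifts was not tested.

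Of the 91 pathway genes, 12 were called for Ang II in IKKβ+/+ mice. Only the groups compared gave 26, array weights 30, edgeR 19, DESeq2 29, an adjusted p under 0.05 gave 7, the adipocyte score 19 and the skeletal muscle score 3, and leaving out a mouse 5 to 25. For Ang II in IKKβ-/- mice (3), the adipocyte score gave 0 and leaving out a mouse 2 to 7. Between genotypes with saline (7), no filter gave 4, only the groups compared 13, array weights 16, DESeq2 13, an adjusted p under 0.05 gave 1, either score 0, leaving out mice X2385 and X2406 gave 0, and leaving out 1 mouse 0 to 9. With Ang II (0), DESeq2 gave 7 and leaving out a mouse 0 to 7. For the difference of the effects (0), array weights gave 3, DESeq2 4 and leaving out a mouse 0 to 3.

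Signs turned in fits with a covariate, none of them called. With the adipocyte score, Ang II in IKKβ-/- mice gave 0.15 for Cnn1, 0.28 for Myh11, 0.13 for Smtn, 0.10 for Mylk, 0.29 for Acta2, 0.090 for Lmod1 and 0.30 for Actg2. Between genotypes it gave -0.033 for Myh11 and -0.17 for Acta2 with saline and 0.0072 for Myl9 with Ang II, and the difference of the effects was 0.094 for Myocd. With the skeletal muscle score, Ang II in IKKβ+/+ mice gave -0.0089 for Myh11 and -0.11 for Mylk, and in IKKβ-/- mice 0.054 for Mylk and 0.069 for Actg2. Between genotypes it gave -0.035 for Myh11, -0.045 for Smtn, -0.14 for Mylk and -0.067 for Acta2 with saline, and 0.020 for Mylk and 0.00012 for Myl9 with Ang II, and the difference of the effects was 0.16 for Mylk. Without mice X2385 and X2406, Tagln was -0.020 for Ang II in IKKβ-/- mice and Myocd 0.16 between genotypes with saline.

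With 1 mouse left out, Myocd ran from -0.45 to 0.072 for Ang II in IKKβ+/+ mice, from -0.44 to 0.16 between genotypes with saline and from -0.57 to 0.040 for the difference. For Ang II in IKKβ-/- mice, Tagln ran from -0.025 to 0.12 and Actg2 from -0.29 to 0.015. Between genotypes with Ang II, Mylk ran from -0.16 to 0.026 and Myl9 from -0.16 to 0.031. Over all genes tested, the calls under the settings that kept every mouse, and without mice X2385 and X2406, ranged from 208 to 2074 (1286 in the reported fit) for Ang II in IKKβ+/+ mice, 3 to 1164 (785) for Ang II in IKKβ-/- mice, 9 to 1902 (812) between genotypes with saline, 0 to 521 (19) with Ang II and 0 to 279 (0) for the difference. With 1 mouse left out they ranged from 428 to 1915, 435 to 1082, 24 to 1726, 0 to 553 and 0 to 79 in the same order. The highest counts came without mouse X2356 for Ang II in IKKβ+/+ mice (1915), between genotypes with Ang II (553) and for the difference (79), and without mouse X2409 between genotypes with saline (1726). TMM scaling and a pseudocount of 4 turned no sign of the 10 genes.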
